A study of Mus musculus with 2 samples.

Results

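The cells described here are tumor-infiltrating monocytes that hold the mRNA of Cxcl10, an interferon-induced chemokine, and little mRNA of Chil3, a secreted chitinase-like protein of classical monocytes. They were selected on measured values in 2 single-cell libraries, by a rule on unique molecular identifiers (UMIs, each 1 captured mRNA molecule). A barcode was kept as a candidate cell with at least 500 UMIs, at least 300 genes and at most 10% of UMIs from mitochondrial genes. A kept barcode belonged to the gate with at least 5 Cxcl10 UMIs, fewer than 5 Chil3 UMIs, at least 3 UMIs of the myeloid lysozyme gene Lyz2 and fewer than 2 of Arg1. It also held at most 2 UMIs of the complement genes C1qa, C1qb and C1qc together, 0 of Cd209a, at most 1 of Ccr7 and Fscn1, at most 1 over 6 T and NK cell genes, and fewer than 10 of S100a8 and S100a9. The rule was met by 508 of 11481 kept barcodes, 181 of 5873 in the ketogenic library and 327 of 5608 in the normal library.

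The tumors grew from MC38, a mouse colon adenocarcinoma line, of which 500000 cells in matrigel were placed under the flank skin of female C57BL/6J mice aged 6 to 8 weeks. The ketogenic library came from mice given a ketogenic diet from day 4, and the normal library from mice left on normal diet; both groups carried the same tumor and were sampled at day 14. Each library held leukocytes of 5 mice combined, enriched with beads against CD45 after removal of dead cells, with no mark of the mouse on a barcode. With 1 library per diet nothing measures the spread between mice or libraries, so no test was made and diet cannot be told apart from library; intervals below are 95% and cover counting error only.

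Type I interferons act on a receptor on most cells and, through STAT2 and IRF9, switch on antiviral genes that carry an interferon-stimulated response element (ISRE). Interferon-gamma, made by T and NK cells, induces chemokines, guanylate-binding proteins and MHC class II. CXCL10 and CXCL9 bind CXCR3, the receptor that draws activated T and NK cells into tumors. Classical monocytes enter tumors from the blood through CCR2, carry Ly6C on their surface and can mature into macrophages that express complement C1q.

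The libraries summed to 42710007 UMIs (ketogenic) and 37575996 UMIs (normal), with medians of 3983 and 4226 UMIs per kept barcode. The gated cells held 662580 and 1243533 UMIs, with medians of 3223 and 3607 UMIs, 1289 and 1418 genes, and 1.24% and 1.87% mitochondrial UMIs per cell. Of the kept barcodes, 7 occurred in both libraries, and 0 of the gated ones did. One gated barcode of the ketogenic library held 45579 UMIs, against 8211 in the next deepest, and 6.88% of all gated UMIs there. It carried 37 of the 38 UMIs of Rhox5, a gene of the tumor or fibroblast marker list, 655 of 696 of the metal-binding protein gene Mt1, and 2 UMIs of Ptprc, which encodes CD45. It stays in the main values because it meets the rule, and results are given with and without it.

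The genes of the rule are a description of how the cells were chosen. Cxcl10 reached a median of 20 UMIs (range 5 to 166) in gated cells of the ketogenic library and 18 (range 5 to 168) in those of the normal library. Its summed level was 8319 and 7744 CPM (UMIs per 1000000 UMIs of the gated cells). Chil3 had 0 UMIs in the median cell of both libraries, and Lyz2 had medians of 30 and 28 UMIs. The gate held 9.55% and 16.5% of all Cxcl10 UMIs in kept barcodes, so most Cxcl10 mRNA lay outside it.

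At least 5 Cxcl10 UMIs were present in 1599 kept barcodes (27.2%) of the ketogenic library and 1836 (32.7%) of the normal library, and 11.3% and 17.8% of these met the rest of the rule. The limit on T and NK cell genes was broken by 53.6% and 39.2% of them, the Chil3 limit by 39.5% and 21.9%, and the C1q limit by 22.8% and 38.6%. Cells just inside the Cxcl10 threshold, with 5 or 6 UMIs, numbered 19 and 37, and those just outside, with 3 or 4, numbered 17 and 43. Ifit2 had 503 CPM in ketogenic and 1167 CPM in normal cells just inside, and 578 and 761 CPM just outside. Cells that met all conditions but had 5 or 6 Chil3 UMIs numbered 28 and 35, with Ifit2 at 1086 and 1130 CPM, and gated cells with 3 or 4 Chil3 UMIs had 1064 and 1684 CPM. Ketogenic cells on the 2 sides of either threshold thus had like Ifit2 levels, and normal cells had more of it inside. This did not hold for every interferon gene. Rsad2 had 822 CPM in ketogenic and 1850 CPM in normal cells just inside the Cxcl10 threshold, and 386 and 1315 CPM just outside. At the Chil3 threshold it had 1686 and 3850 CPM inside, and 2575 and 3606 CPM outside.

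Promoter sequences of Cxcl10, Gbp2 and Ddx60 are shown because they carry the response element behind the name of these cells: Cxcl10 chose them, Gbp2 is one of their label genes, and Ddx60 is among the genes with the lowest ketogenic-to-normal ratios below. Each runs from 250 bases before to 50 bases after the gene start, 5′ to 3′ on the gene's strand, from RefSeq on GRCm38.p6. Capitals mark an ISRE-type motif, GAAA, any 2 bases and GAAA, on either strand. The spans are chr5:92348840-92349139 (minus strand) for Cxcl10, chr3:142620413-142620712 (plus) for Gbp2 and chr8:61927837-61928136 (plus) for Ddx60.
Cxcl10: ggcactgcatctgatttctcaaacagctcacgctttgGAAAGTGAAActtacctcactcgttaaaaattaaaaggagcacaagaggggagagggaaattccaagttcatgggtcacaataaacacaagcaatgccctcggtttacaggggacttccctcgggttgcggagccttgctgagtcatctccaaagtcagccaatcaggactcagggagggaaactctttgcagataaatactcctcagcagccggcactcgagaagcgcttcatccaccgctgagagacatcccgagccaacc
Gbp2: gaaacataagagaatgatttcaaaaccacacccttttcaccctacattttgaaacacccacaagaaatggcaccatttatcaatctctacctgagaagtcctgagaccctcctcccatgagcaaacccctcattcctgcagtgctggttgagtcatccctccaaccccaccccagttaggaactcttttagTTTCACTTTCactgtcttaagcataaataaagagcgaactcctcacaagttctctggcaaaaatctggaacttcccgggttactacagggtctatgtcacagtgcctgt
Ddx60: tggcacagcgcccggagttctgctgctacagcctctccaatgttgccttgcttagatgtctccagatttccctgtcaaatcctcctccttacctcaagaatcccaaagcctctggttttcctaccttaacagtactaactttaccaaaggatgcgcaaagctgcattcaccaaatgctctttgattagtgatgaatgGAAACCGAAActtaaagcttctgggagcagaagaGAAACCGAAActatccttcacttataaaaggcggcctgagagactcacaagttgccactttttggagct
The motif began 213 bases before the start of Cxcl10 and 59 before that of Gbp2, and at 53 and 19 before that of Ddx60. It was found in 3.44% of all 32851 mouse promoters, in 6.66% of the 2283 measured genes with a promoter in the table, and in 21 of the 39 genes (53.8%) of the type I interferon list with one. A STAT-type motif, TTCNNNGAA, was found in 8.30% of all promoters and in 6 of these 39 (15.4%). It reads the same on both strands, and the motifs were searched separately, so overlapping matches count for each. Of the 5 label genes, 2 had the ISRE-type motif in this window, Cxcl10 and Gbp2. Cxcl9 and Vcan had neither motif, and of the 2 listed Ifit2 promoters 1 had a STAT-type motif and 0 had the ISRE-type motif. Of the named genes below with a listed promoter, the ISRE-type motif was in 1 of 11 higher and 1 of 8 lower in the ketogenic library. The higher one was Rpl38, with the motif 101 bases before its start, and the lower one was Ddx60.

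Of the 5 genes given for the cells, Ifit2 and Gbp2 were carried by most of them, and Cxcl9 and Vcan by a minority. Ifit2, which encodes an antiviral RNA-binding protein, was detected in 80.7% (74.1 to 86.1) of ketogenic and 89.0% (85.1 to 92.2) of normal gated cells, and Gbp2, a guanylate-binding protein, in 74.0% (67.0 to 80.3) and 80.4% (75.7 to 84.6). Cxcl9, the second CXCR3 ligand, was found in 19.9% (14.3 to 26.5) and 17.7% (13.8 to 22.3). Vcan, a matrix proteoglycan of classical monocytes, was found in 42.0% (34.7 to 49.5) and 44.3% (38.9 to 49.9), with 0 UMIs in the median cell. Vcan had 255 CPM in ketogenic and 321 CPM in normal gated cells, below the 469 and 432 CPM of Chil3-high cells, which met every other lineage limit but had at least 5 Chil3 UMIs and no Cxcl10 condition. Vcan and Cxcl9 therefore do not mark the gate as a whole, and the cells are called Cxcl10-positive monocytes below.

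The monocyte markers were high and those of most other lineages low. The 8 monocyte markers summed to 14163 and 16567 CPM in ketogenic and normal gated cells, led by Plac8, and 81.8% and 89.6% of cells had at least 2 UMIs of Ly6c2, which encodes the Ly6C of classical monocytes. Several other lists hold genes that the rule capped, so their low sums are partly fixed by it, and the macrophage, T cell, NK cell and neutrophil sums are given here without those genes. The 5 other macrophage markers summed to 1177 and 1977 CPM, mostly Apoe, against 8185 and 7931 CPM in C1q-positive macrophages, which were chosen on C1q. Without the capped genes, the T cell list summed to 19.6 and 28.1 CPM, the NK cell list to 48.3 and 83.6 CPM and the neutrophil list to 95.1 and 183 CPM. The dendritic cell genes Xcr1, Cadm1, Cd209a and Mgl2 were at 0 in both libraries, though Cd209a was required to be. Bst2, also a type I interferon gene, and Irf8 led the plasmacytoid (1729.6 and 1841 CPM) and type 1 conventional dendritic cell lists (433 and 582 CPM). The lists for type 2 conventional and CCR7-positive dendritic cells, B cells, endothelium, platelets and red cells summed to between 3.02 and 219.5 CPM, with capped genes included in the first 2 of these lists. The 8 tumor or fibroblast markers summed to 75.5 and 15.3 CPM, and to 3.24 CPM in ketogenic cells without the deepest barcode.

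Free mRNA in the droplets and NK cells also carried Cxcl10. Free mRNA held 1698 CPM of it in the ketogenic and 1743 CPM in the normal library. In NK cells, 30.6% of ketogenic and 32.4% of normal barcodes had a Cxcl10 UMI. At least 5 were found in 9.42% (7.80 to 11.2) and 8.25% (6.34 to 10.5), at median depths of 4264 and 5187 UMIs, and the highest NK barcodes had 122 and 185. Cxcl10 stood at 378 and 314 CPM in NK cells. Chil3 stood at 6.47 and 4.85 CPM there, against 633 and 229 CPM in free mRNA. Whether the Cxcl10 of NK barcodes came from free mRNA, mixed barcodes or the NK cells themselves was not tested. After thinning to 2000 UMIs, Ifit2 was in 71.2% and 81.4% of gated cells against 7.97% and 9.67% of NK cells, and Vcan in 31.9% and 33.7% against 0.319% and 0.328%. Thinning left 163 of 181 ketogenic and 312 of 327 normal gated cells. The detection of Ifit2, Gbp2 and Vcan in gated cells was thus well above that in NK cells at equal depth, while the Cxcl10 threshold alone was passed by the NK shares given here.

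**Figure D1:**
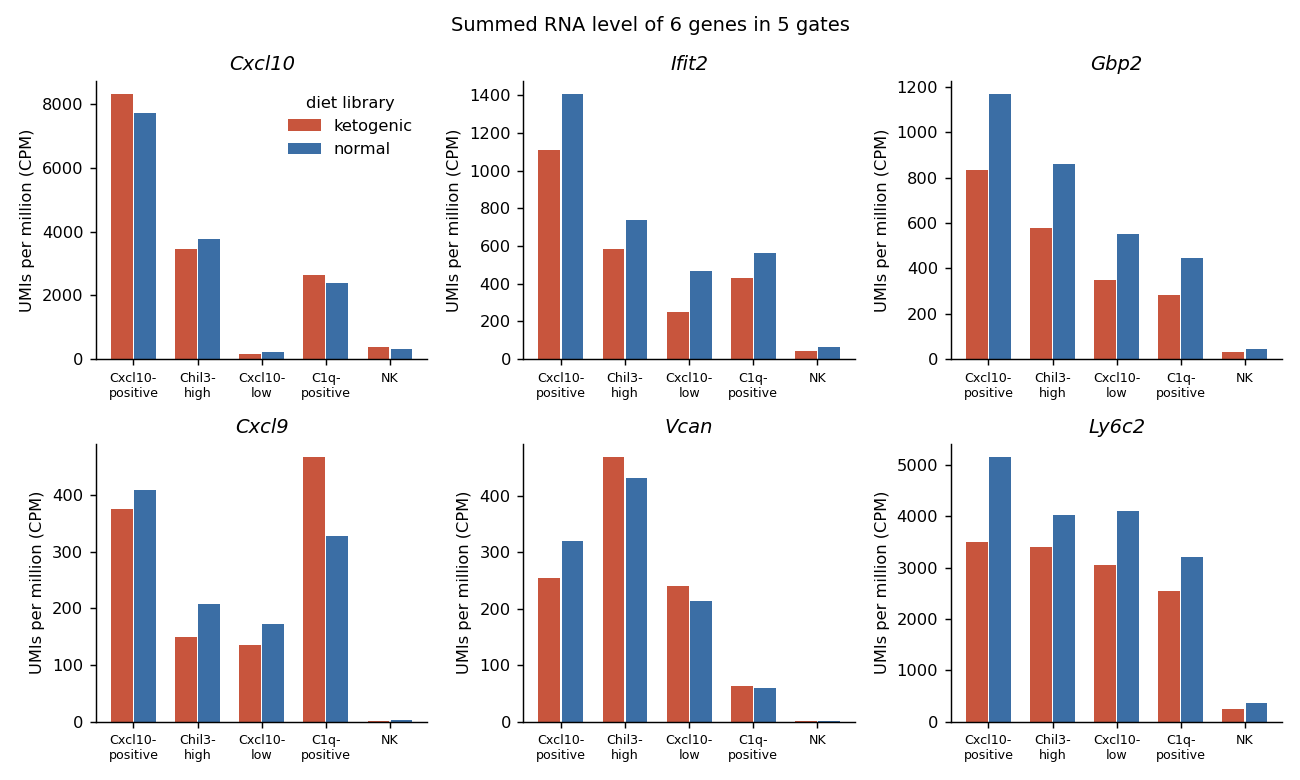
Summed level (UMIs per 1000000, CPM) of 6 genes in 5 gates, with the ketogenic library left of the normal one; bars are 1 library each and have no error. Ifit2 was at 1112 and 1406 CPM in Cxcl10-positive cells against 584 and 736 CPM in Chil3-high cells, Vcan was higher in Chil3-high cells, and Cxcl9 reached 467 and 327 CPM in C1q-positive macrophages; Cxcl10 chose the first gate.

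Cxcl10-positive monocytes made up 3.08% (2.65 to 3.56) of kept barcodes in the ketogenic library and 5.83% (5.23 to 6.48) in the normal library, a ratio of 0.529 (0.438 to 0.636). Among myeloid-gated barcodes, which met the limits on other lineages whatever their Cxcl10, Chil3 and Arg1, they were 15.7% (13.7 to 17.9) of 1152 and 25.1% (22.8 to 27.6) of 1301. The share was lower in the ketogenic library with either denominator, by more than the counting error. The gap was smaller without the Chil3 limit. Cells that met every other condition but had 7 or more Chil3 UMIs numbered 185 and 126, and 28 and 35 more had 5 or 6. With no Chil3 limit, an alternative added after seeing the data, 394 and 488 cells made up 6.71% (6.08 to 7.38) and 8.70% (7.98 to 9.47) of kept barcodes, a ratio of 0.771 (0.673 to 0.882). Of myeloid-gated barcodes they were 34.2% (31.5 to 37.0) and 37.5% (34.9 to 40.2), a ratio of 0.912 (0.796 to 1.04) whose interval includes 1. Fewer such cells and more Chil3 per cell cannot be told apart. Free mRNA held 633 CPM of Chil3 in the ketogenic and 229 CPM in the normal library, and its part in the Chil3 limit was not tested. With the Chil3 limit, the ratio of kept barcodes was 0.605 after all cells were thinned to 2000 UMIs and gated on at least 2 Cxcl10 UMIs with the other limits kept.

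Between the diets, expression in Cxcl10-positive monocytes differed more often downward than upward in the ketogenic library. Of 2842 measured genes (at least 50 CPM in either library and 30 UMIs over both), 87 (3.06%) were at least 1.5-fold higher and 239 (8.41%) at least 1.5-fold lower with 20 CPM added to both sides, a size rule and not a test. Without the deepest barcode 45 of 2853 (1.58%) were higher and 163 (5.71%) lower. The balance depended on the scaling: 144 were higher and 211 lower when mitochondrial and ribosomal protein genes were left out of the total, and 116 and 176 when the ratios were centred on the median gene. For 38 of the 87 higher and 6 of the 239 lower genes, 1 cell held over 20% of a library's UMIs of the gene, and such genes are named below only where this is said. The median log2 ratio of all measured genes was −0.08, and −0.05 without the deepest barcode.

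Cd14, Plaur and Hilpda had the 3 highest log2 ratios, with 20 CPM added, among genes of which no cell held over 20% of the UMIs. Cd14, the lipopolysaccharide co-receptor, had 650.5 CPM (591 to 715) in the ketogenic library and 305 CPM (275 to 337) in the normal library, a log2 ratio of 1.05. Plaur, the urokinase receptor used in cell migration, had 447 CPM (397 to 501) against 209.9 CPM (185 to 237), a log2 ratio of 1.02. Hilpda, a hypoxia-inducible inhibitor of lipid droplet breakdown, had 160.0 CPM (131 to 193) against 62.7 CPM (49.6 to 78.3), a log2 ratio of 1.12. The interval of the ratio excluded 1 for these 3 genes, as it did for all 87 higher and all 239 lower genes. The genes were picked by the size of this ratio in the same counts, so this gives them no added support. Their log2 ratios without the deepest barcode were 1.14 (Cd14), 1.11 (Plaur) and 1.15 (Hilpda). Thinned to 2000 UMIs, Plaur was found in 54.6% (46.6 to 62.4) of ketogenic and 31.1% (26.0 to 36.5) of normal gated cells, so it differed in the share of cells that showed it. In NK cells Plaur was found in 2.98% and 0.492% at that depth. Free mRNA held 135 and 107 CPM of Plaur and 164 and 145 CPM of Cd14, both below the gated levels, but 204 and 186 CPM of Hilpda, above them. With free mRNA subtracted at 5% of the gated UMIs, the log2 ratios were 1.06 for Cd14, 1.04 for Plaur and 1.22 for Hilpda.

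The other 9 named higher genes included surface receptors and ribosomal protein genes. Cd302, a C-type lectin receptor, had 60.4 CPM in ketogenic and 21.7 CPM in normal cells, Cd300a, an inhibitory receptor, 196 and 107 CPM, and the tetraspanin Cd9 121 and 61.1 CPM. Ear2, an eosinophil-associated ribonuclease gene, had 74.0 and 33.0 CPM; it belongs to a family of similar genes whose reads can be shared. Rgcc, a cell cycle regulator, had 67.9 and 26.5 CPM, Cox20, an assembly factor of cytochrome oxidase, 103 and 49.1 CPM, and the calcium-binding protein gene S100a1 75.5 and 36.2 CPM. Rps26 and Rpl38, of the small and large ribosomal subunit, had 1874 and 1062 CPM, and 1778 and 1038 CPM. The 77 measured ribosomal protein genes had a median log2 ratio of 0.49, which was 0.28 without the deepest barcode; that barcode held 14.1% of the Rps26 and 15.4% of the Rpl38 UMIs as the richest cell of the gate, and their log2 ratios without it were 0.69 and 0.63.

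The lowest ratios belonged to genes of unlike functions, with Neat1 first. Neat1, a long noncoding RNA that builds nuclear paraspeckles, had 275 CPM (236 to 318) in the ketogenic library and 725 CPM (679 to 774) in the normal library, the lowest log2 ratio of the named genes at −1.34. Hdc, the enzyme that makes histamine, had 28.7 and 90.9 CPM, and the orphan nuclear receptor Nr4a2 21.1 and 72.4 CPM. Hdc is itself on the neutrophil and the basophil or mast cell lists, which summed to 107 and 205 CPM and to 28.7 and 111 CPM, with the 7 other basophil or mast cell markers at 0 in ketogenic cells; the part of such cells was not tested. Slc28a2, a nucleoside transporter, had 16.6 and 61.1 CPM. Ccnd2, a D-type cyclin, had 107 CPM (83.7 to 135) and 256 CPM (228 to 285), a log2 ratio of −1.12. Mov10, an RNA helicase that restricts retroelements, had 16.6 and 56.3 CPM, Neurl3, a ubiquitin ligase, 112 and 252 CPM, the adhesion protein gene Tns3 28.7 and 80.4 CPM, and Poldip3 33.2 and 89.3 CPM. The unnamed locus Gm20559 had 93.6 and 213 CPM and the histone gene Hist3h2a 25.7 and 73.2 CPM. Several of these rest on few molecules, such as 11 ketogenic UMIs each for Slc28a2 and Mov10. Neat1 was also lower in the free mRNA of the ketogenic library, with 123 CPM against 318 CPM in barcodes of at most 100 UMIs, and its log2 ratio was −1.34 with free mRNA subtracted at 5%.

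**Figure D2:**
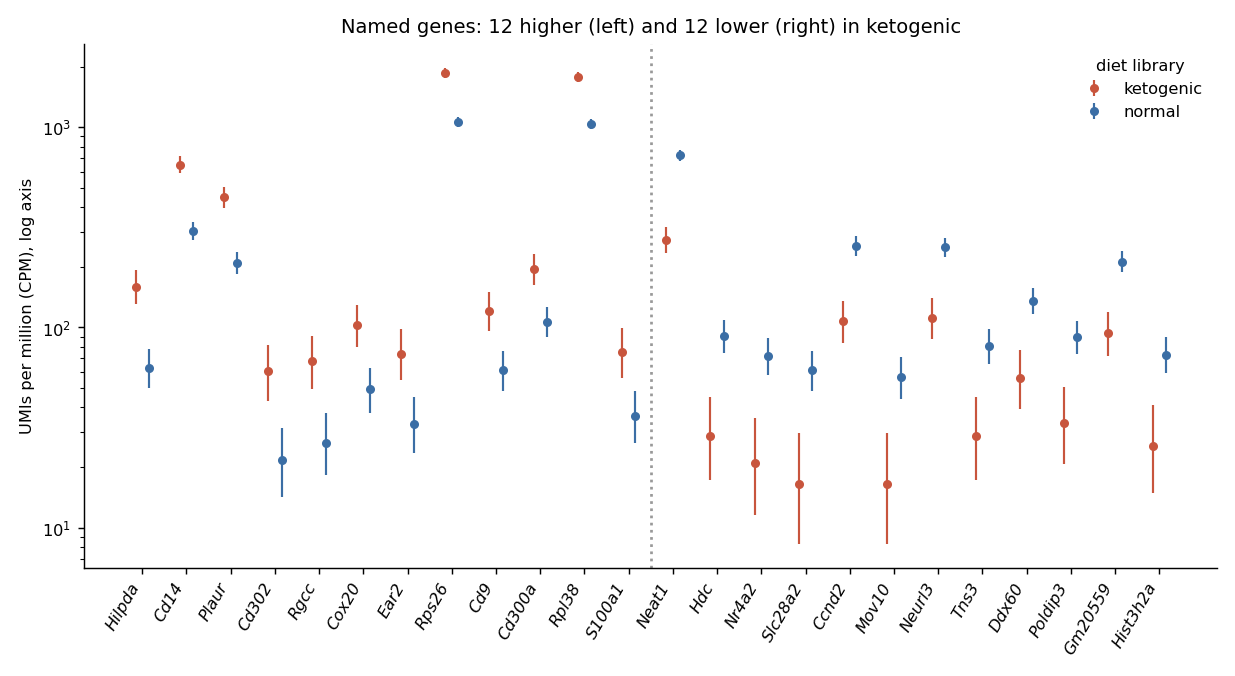
Level (CPM, log axis) of the 12 named genes with the highest and the 12 with the lowest ratio in Cxcl10-positive monocytes, ketogenic library left of the normal one; points are 1 library each and bars are 95% Poisson intervals for counting error. Cd14 stands at 650.5 against 305 CPM and Neat1 at 275 against 725 CPM.

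Type I interferon-stimulated genes were lower as a group in the ketogenic library, although the cells had been matched on a minimum of Cxcl10. Of 50 measured genes on the list (51 in the files), 0 were at least 1.5-fold higher and 15 at least 1.5-fold lower, against 3.06% and 8.41% of all measured genes, and 48 had a log2 ratio below 0. Their median log2 ratio was −0.37 beside −0.08 for all genes, and −0.28 beside −0.05 without the deepest barcode, when 12 were lower. Rsad2, which encodes the antiviral enzyme viperin, had 1601 CPM (1506 to 1701) in ketogenic and 3266 CPM (3166 to 3368) in normal cells, a log2 ratio of −1.02. Ddx60, an RNA helicase of the antiviral response, had 55.8 CPM (39.3 to 77.0) and 136 CPM (116 to 158), and Ifit1bl1, an Ifit-family gene, 320.0 CPM (278 to 366) and 661 CPM (617 to 708). Members at the other end were nearly level, with log2 ratios of 0.07 for Ifi47, 0.05 for Xaf1 and −0.05 for Bst2. Ifit2 had 1112 and 1406 CPM, a log2 ratio of −0.33.

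Thinned to 2000 UMIs, Rsad2 was found in 74.2% (66.8 to 80.8) of ketogenic and 88.5% (84.4 to 91.8) of normal gated cells, against 11.3% and 10.3% of NK cells. Free mRNA differed in the same direction, with Rsad2 at 320.5 CPM in the ketogenic and 659 CPM in the normal library, and the list median was −0.36 with free mRNA subtracted at 5%. In Chil3-high cells the type I list had a median log2 ratio of −0.25 beside −0.06 for all genes there. These cells come from the same libraries, and 10 of 49 list members were at least 1.5-fold lower among them, where 0.719% of 2922 genes were higher and 3.05% lower.

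Genes tied more to interferon-gamma had list medians of −0.22 and −0.24, beside −0.08 for all measured genes. In Cxcl10-positive monocytes 8.41% of all measured genes were lower, and the counts of lower genes in the lists of this paragraph did not exceed that share. Of 11 measured guanylate-binding proteins and immunity-related GTPases, which attack vacuoles of intracellular microbes, 0 were at least 1.5-fold higher and 0 lower, with a median log2 ratio of −0.22. In Chil3-high cells their median was −0.49, below the −0.25 of the type I list there, with 3 of 11 lower. Gbp2 was the lowest at −0.47, with 835 CPM (766 to 907) in ketogenic and 1167 CPM (1108 to 1228) in normal cells, and Irgm1 the highest at 0.24. Of 24 other interferon-gamma-induced genes, 0 were higher and 2 lower, with a median of −0.24. The lower ones were Acod1 and Cd274: Acod1, the itaconate-making enzyme, had 177 CPM (146 to 212) against 305 CPM (275 to 337), and Cd274, the checkpoint ligand PD-L1, 118 CPM (93.1 to 147) against 191 CPM (167 to 216). Cd274 had a log2 ratio of −0.61, and −0.52 without the deepest barcode, which is short of 1.5-fold. Cxcl9 had 376 and 409 CPM, with 19.3% of the ketogenic UMIs in 1 cell. Of 19 interferon receptor and signaling genes, the 1 that was lower was Stat2, at 181 CPM (150 to 217) against 326 CPM (295 to 360), while Irf1 had a log2 ratio of 0.28.

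**Figure D3:**
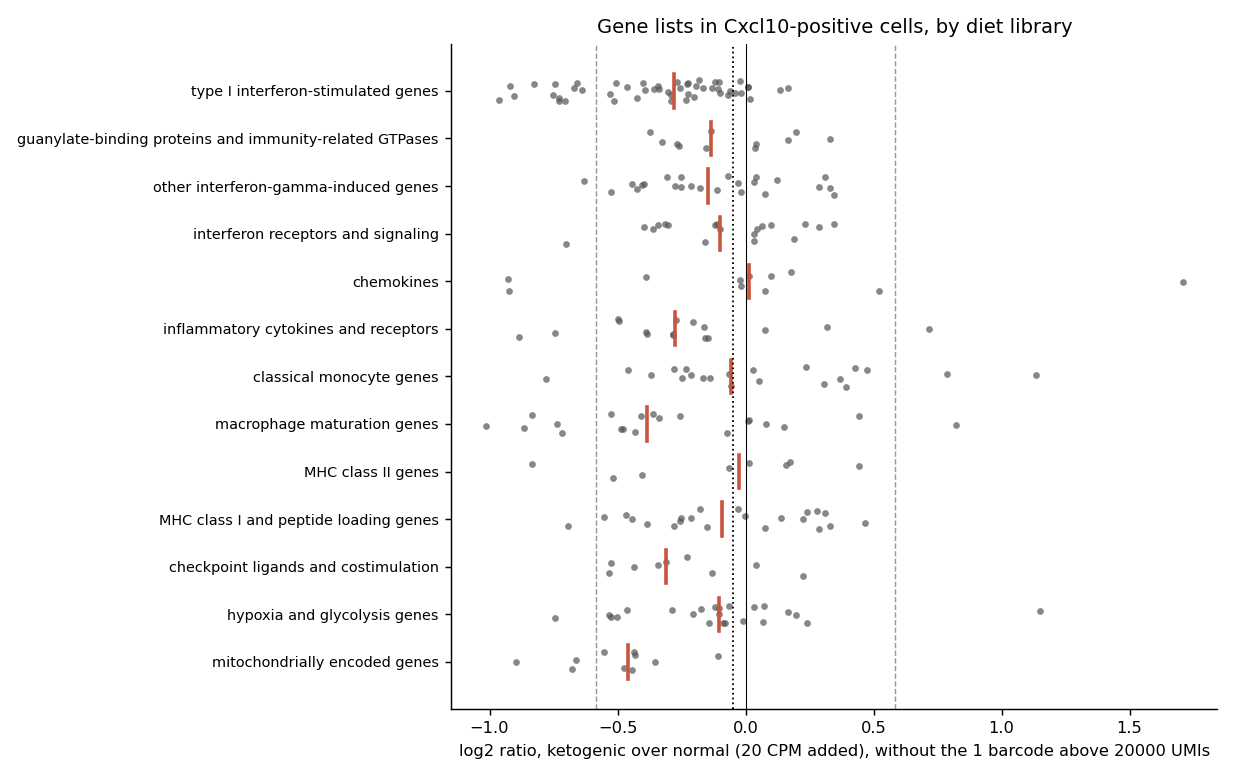
Log2 ratio, ketogenic over normal (20 CPM added), of each measured member of 13 gene lists in Cxcl10-positive monocytes without the barcode of 45579 UMIs. Each point is 1 gene, red bars are list medians, the dotted line is the median of all measured genes and dashed lines are 1.5-fold; the type I interferon list has its median at −0.28 and the mitochondrial list at −0.46.

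Among chemokines the differences went both ways. Of 11 measured chemokines, 1 was at least 1.5-fold higher and 2 were lower in the ketogenic library, against 3.06% and 8.41% of all measured genes. Ccl5, a chemokine that attracts T cells, had 799.9 CPM (733 to 871) in ketogenic and 1652 CPM (1581 to 1725) in normal cells, a log2 ratio of −1.03, and Ccl9, a ligand of CCR1, had 266 CPM (228 to 308) and 553 CPM (513 to 596), a log2 ratio of −1.01. Ccl5 is also made by NK and T cells and stood at 1390 and 1200 CPM in free mRNA, above its level in ketogenic gated cells. Ccl12 was level, with 490.5 and 489.7 CPM, and Ccl2, which attracts monocytes through CCR2, had 2131 and 1992 CPM.

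The higher chemokine was Cxcl2, a neutrophil attractant, which the naming rule leaves out because 1 ketogenic cell held 21.0% of its UMIs. It had 654 CPM (593 to 718) in the ketogenic library and 201 CPM (177 to 228) in the normal library. Without the deepest barcode, and then without the richest remaining cell of each library, it had 557 and 183 CPM, a ratio of 3.04 (2.56 to 3.62). Spp1, which encodes osteopontin, had 519 and 205 CPM, and 378 and 205 CPM without the deepest barcode, which was its richest ketogenic cell. By the further step it had 267 and 159 CPM, a ratio of 1.68 (1.36 to 2.08). Both genes stayed higher in summed level in the ketogenic library without these cells, but only Cxcl2 was found in a larger share of cells. In thinned cells Cxcl2 was found in 23.9% (17.6 to 31.2) of ketogenic and 13.1% (9.60 to 17.4) of normal gated cells, against 1.49% and 1.64% of NK cells. Spp1 was found in 16.0% (10.7 to 22.5) of ketogenic and 16.0% (12.1 to 20.6) of normal gated cells. It was found in more NK cells, 46.0% and 52.1%.

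Inflammatory cytokine and receptor genes had a lower median ratio than all measured genes, and classical monocyte genes were mixed. All measured genes had a median log2 ratio of −0.08, itself below 0, with 3.06% at least 1.5-fold higher and 8.41% lower. Of 16 inflammatory genes, 13 had a log2 ratio below 0, 1 was at least 1.5-fold higher and 4 were lower (2 without the deepest barcode), with a median of −0.36 (−0.28 without it). The higher one was Il1b, the interleukin-1 beta gene, at 2271 CPM (2158 to 2389) in ketogenic and 1471 CPM (1404 to 1540) in normal cells. The tumor necrosis factor receptor gene Tnfrsf1b had 86.0 CPM (65.2 to 111) and 187 CPM (164 to 213), Vegfa, a growth factor for vessels, 30.2 and 65.1 CPM, and Osm, an interleukin-6 family cytokine, 181 and 283 CPM. Of 21 classical monocyte genes, 2 were higher and 1 lower, with a median log2 ratio of −0.16. The higher ones were Cd14 and Hp, the hemoglobin-binding haptoglobin, at 409 CPM (362 to 461) and 246 CPM (219 to 275); the lower one was Thbs1, an adhesive matrix protein, at 528 and 987 CPM. Ly6c2 had 3491 and 5155 CPM, a log2 ratio of −0.56, just short of 1.5-fold.

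Macrophage maturation genes were more often lower. Of 20 measured, 1 (Spp1, described above) was at least 1.5-fold higher and 5 lower, against 3.06% and 8.41% of all measured genes. The median log2 ratio was −0.35, and −0.38 without the deepest barcode, beside −0.08 and −0.05 for all genes. Adgre1, the F4/80 antigen, had 39.2 and 90.9 CPM in ketogenic and normal cells, Ctsd, a lysosomal protease, 213 and 395 CPM, and Fabp5, a fatty acid carrier, 198 and 367 CPM, each a log2 ratio of −0.83 or lower. The 8 macrophage markers, 3 of them capped by the rule, were lower as well, at 1207 and 2050 CPM, and free mRNA held 1305 and 4234 CPM of them; their part in these values was not tested. C3ar1, the complement C3a receptor, had 165 and 335 CPM, the 1 gene of 10 chemoattractant receptors past 1.5-fold, while Ccr2 had 445 and 620.0 CPM.

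MHC genes were near the median of all genes as lists, and checkpoint and costimulatory genes were below it. Of 8 measured MHC class II genes 0 were higher and 2 lower (1 without the deepest barcode), with a median log2 ratio of −0.12: H2-Eb1 had 282 CPM (243 to 326) in ketogenic and 556 CPM (515 to 599) in normal cells and H2-Ab1 628 and 974 CPM, but Cd74, the invariant chain, had 3091 and 2941 CPM. Thinned, H2-Ab1 was found in 25.8% (19.2 to 33.2) and 26.0% (21.2 to 31.2) of gated cells, so about the same share of cells showed it. Of 22 MHC class I and peptide loading genes the 1 that passed 1.5-fold was H2-Q7, at 205 and 366 CPM, one of several near-identical genes whose reads can be shared. Of 9 checkpoint and costimulatory genes 2 were lower, Cd274 and Cd86, a T cell costimulator with 229 and 365 CPM, and 0 were without the deepest barcode. Their median log2 ratio was −0.41 with 8 of 9 below 0, and −0.31 without that barcode. All measured genes had medians of −0.08 and −0.05, and 8.41% of them were lower, or 5.71% without that barcode.

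The directions of 11 of 20 genes held in all bins of cells matched more closely on Cxcl10. When gated cells were split by their Cxcl10 UMIs into 5 to 6, 7 to 9, 10 to 19, 20 to 39 and 40 or more, Rsad2, Gbp2, Ccl5, Ly6c2, H2-Ab1 and Cd274 were lower in the ketogenic library in 5 of 5 bins. Cd14, Plaur, Cxcl2, Il1b and Hp were higher in 5 of 5. Ifit2 and Isg15 were lower in 4 of 5, and Ifit2 was at 1654 and 1579 CPM among cells with 20 to 39 Cxcl10 UMIs. Cxcl9, Vcan, Ccl4 and Ccl12 were lower in 3 of 5, Ccl2 and Tnf were higher in 3 of 5, and Cxcl10, on which the bins were set, was higher in 4 of 5. Among cells with 40 or more Cxcl10 UMIs, 47 ketogenic and 86 normal, Rsad2 was at 2834 and 4766 CPM, whereas Cd14 reached 654 and 287 CPM. Among those with 10 to 19, 42 and 96 cells, Rsad2 was at 886 and 2543 CPM, with Cd14 at 580.5 and 319.9 CPM. The lowest bin held 19 ketogenic cells, where Rsad2 was at 822 and 1850 CPM, and without it the count for each of the 11 genes is 4 of 4. The 20 genes were chosen after their values had been seen, and the bins use the same cells as the totals above. Rsad2 also went up with the Cxcl10 bin in the normal library, and in the ketogenic library it stayed between 729 and 886 CPM over the lower 3 bins before reaching 1784 and 2834 CPM.

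**Figure D4:**
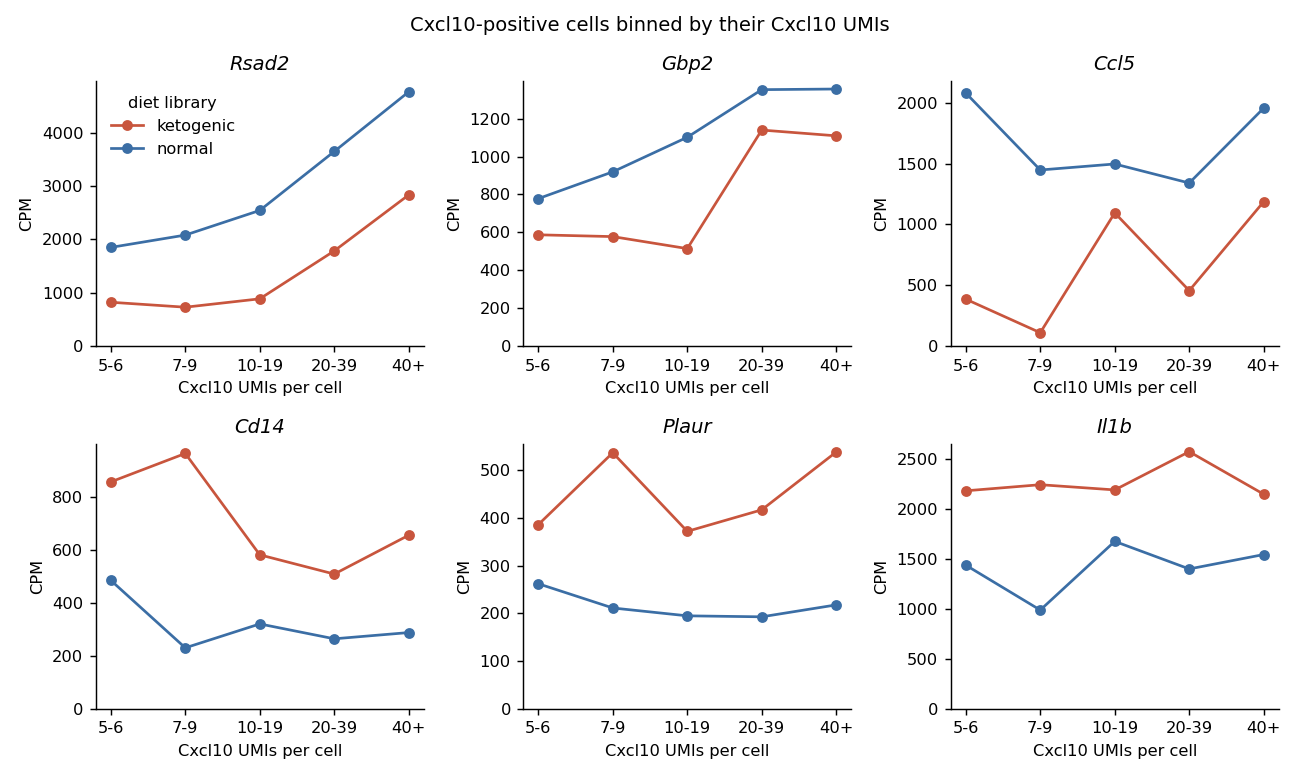
Level (CPM) of 6 genes in Cxcl10-positive monocytes binned by their Cxcl10 UMIs, for the ketogenic and the normal library; each point is the sum over the cells of 1 bin, and the ketogenic bin of 5 to 6 UMIs holds 19 cells. Rsad2, Gbp2 and Ccl5 lie lower and Cd14, Plaur and Il1b higher in the ketogenic library in 5 of 5 bins.

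Set beside Chil3-high monocytes of the same library, the Cxcl10-positive cells carried more mRNA of 4 MHC class II genes and of the chemokines Ccl12 and Ccl5. This contrast is partly fixed by the rule, which used Cxcl10, Chil3 and the same cells, so it is a description. Chil3-high cells had no Cxcl10 limit and held it at 3443 CPM in the ketogenic and 3783 CPM in the normal library. Of their 579 and 357 cells, 185 and 126 had at least 5 Cxcl10 UMIs with 7 or more Chil3 UMIs. Another 28 and 35 had as many Cxcl10 UMIs with 5 or 6 Chil3 UMIs. Of 2657 measured genes, 19 (0.715%) were at least 2-fold higher in both libraries and 4 (0.151%) lower. In the ketogenic library alone 1.09% were higher and 0.414% lower, and in the normal library 1.02% and 0.301%. Cd74 had 3091 CPM in ketogenic Cxcl10-positive cells against 869.7 CPM in ketogenic Chil3-high cells, and 2941 against 719.8 CPM in the normal library. H2-Aa had 684 against 212 CPM and 978 against 189 CPM, and 4 of the 8 MHC class II genes passed 2-fold in both libraries. The list medians were 0.98 (ketogenic) and 1.48 (normal) beside −0.03 and −0.04 for all genes.

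The other named genes higher than in Chil3-high cells had varied functions. Slamf7, a receptor of activated leukocytes, had 169 against 44.7 CPM in the ketogenic and 238 against 74.0 CPM in the normal library. Ccl12, a CCR2 ligand, had 490.5 against 168 and 489.7 against 153 CPM, and Ccl5 799.9 against 342 and 1652 against 458 CPM. These were the 2 of 11 chemokines past 2-fold in both libraries, while Ccl6 was lower, at 703 against 1184 and 516 against 871 CPM. Of 20 MHC class I and peptide loading genes 1 passed, H2-Q7, at 205 against 80.5 and 366 against 139 CPM. Ly6a, the interferon-inducible antigen Sca-1, had 1885 against 841 and 2114 against 866 CPM, and Traf1, an adaptor of tumor necrosis factor receptors, 165 against 61.7 and 201 against 64.4 CPM. The locus AA467197 had 574 against 175 and 801 against 338 CPM. Serpina3g, a protease inhibitor, had 103 against 36.7 and 117 against 30.8 CPM. The 49 type I interferon genes measured in this contrast had medians of 0.38 and 0.43 with 0 past 2-fold in both libraries. The list thus lay above all genes by a small margin, over comparison cells that include the Cxcl10-bearing ones counted above.

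The genes lower than in Chil3-high cells included secreted and matrix proteins. Hp had 409 against 929 CPM in the ketogenic and 246 against 634 CPM in the normal library, Fn1, which encodes fibronectin, 362 against 805 and 323 against 804 CPM, Mgst1, a glutathione transferase, 216 against 520.5 and 161 against 393 CPM, and the membrane skeleton gene Add3 40.7 against 125 and 45.0 against 130.3 CPM. These are the 4 genes past 2-fold in both libraries. F13a1, coagulation factor XIII, followed at 154 against 326 and 162 against 391 CPM. The 21 classical monocyte genes had medians of −0.27 and −0.25.

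The higher MHC class II level was relative to Chil3-high cells. In Cxcl10-low cells, which met the rule except for fewer than 5 Cxcl10 UMIs, H2-Ab1 had 660.0 CPM (ketogenic) and 1372 CPM (normal), not below the 628 and 974 CPM of Cxcl10-positive cells, and in C1q-positive macrophages it had 1834 and 2183 CPM. Free mRNA held 562 and 1112 CPM of it. Ifit2 behaved otherwise, with 249.5 and 467 CPM in Cxcl10-low cells. Several other genes named as higher than in Chil3-high cells were higher still in C1q-positive macrophages. There, in the ketogenic and normal library, Ccl12 had 1608 and 1448 CPM, Ly6a 3420 and 3117 CPM, and H2-Q7 589 and 805 CPM. AA467197 had 775 and 861 CPM and Slamf7 255 and 282 CPM. Ccl5, Traf1 and Serpina3g were lower in these macrophages than in Cxcl10-positive cells. Free mRNA held 538 and 744 CPM of H2-Q7.

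**Figure D5:**
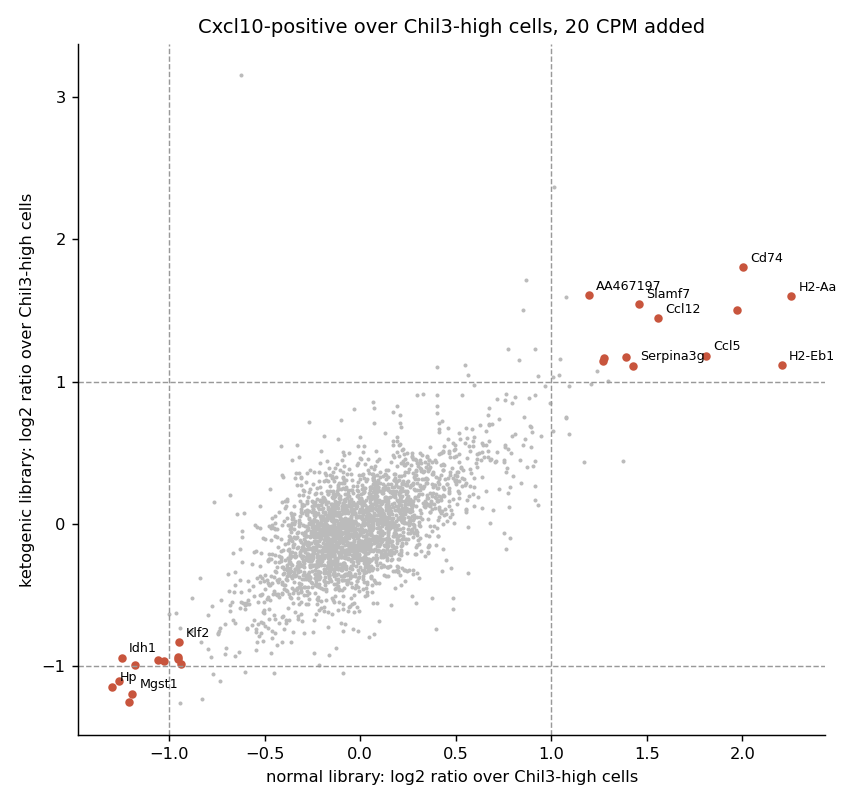
Log2 ratio of Cxcl10-positive over Chil3-high monocytes (20 CPM added), ketogenic library on the vertical and normal library on the horizontal axis; each point is 1 of 2657 genes, the named genes are red and dashed lines are 2-fold. H2-Aa lies at 1.60 (ketogenic) and 2.26 (normal), and Hp at −1.15 and −1.30.

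The Cxcl10-positive cells were not uniform. By the summed UMIs of Cd74, H2-Aa, H2-Ab1 and H2-Eb1, 53 of 181 ketogenic and 73 of 327 normal cells had 0, the median was 2 in both, and 11 and 22 cells had 100 or more. At least 10 UMIs were found in 46 (25.4%, 19.2 to 32.4) and 83 (25.4%, 20.8 to 30.5) cells, with 14 and 29 cells between 7 and 13 near that limit, so these cells are a range and not a type. Among cells with at least 2 Ly6c2 UMIs, those with that much MHC class II mRNA numbered 39 and 75 at medians of 3385 and 3711 UMIs, and those with less numbered 109 and 218 at 3329 and 3552 UMIs.

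Between these groups of Ly6c2-bearing cells several genes differed in both libraries. Ccl5 had 1681 CPM in ketogenic cells with MHC class II against 537 CPM in those without, and 2281 against 1482 CPM in normal cells. Vcan had 92.0 against 361 CPM and 169 against 401 CPM, and Hp 204 against 550.1 CPM and 95.2 against 309.7 CPM. This also held for Rsad2, at 1209 against 1896 CPM and 2299 against 3768 CPM. Cells with MHC class II mRNA thus had more Ccl5 and less Vcan, Hp and Rsad2 in both libraries, and Rsad2 was lower in the ketogenic library within either group. In the 38 and 85 cells with at least 2 Vcan UMIs, H2-Ab1 was at 106 and 395 CPM.

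Most of the named diet genes kept their direction in Chil3-high, Cxcl10-low and C1q-positive cells. These gates come from the same libraries and share the same mice and free mRNA. Cd14 had 729 (ketogenic) and 418 CPM (normal) in Chil3-high cells, 651 and 345 CPM in Cxcl10-low cells, and 415 and 271 CPM in C1q-positive macrophages. Neat1 had 392 and 906 CPM in Chil3-high cells, 386 and 763 CPM in Cxcl10-low cells, 125 and 279 CPM in C1q-positive macrophages and 58.2 and 93.97 CPM in NK cells. Plaur had 514 (ketogenic) and 253 CPM (normal) in Chil3-high cells, 443 and 254 CPM in Cxcl10-low cells, and 261 and 121 CPM in C1q-positive macrophages. For Ccnd2 these values were 40.5 and 96.7, 68.2 and 139, and 145 and 318 CPM. Rsad2 of the type I list was lower in each as well, at 1122 and 1984.5, 268 and 743, and 634 and 1108 CPM. Some other named genes were nearly level or went the other way in some of these gates. Hilpda had 144 and 65.2 CPM in Chil3-high cells, 126 and 148 CPM in Cxcl10-low cells and 247 and 182 CPM in C1q-positive macrophages. Cd9 was nearly level in Chil3-high cells at 60.2 (ketogenic) and 57.1 CPM (normal), but stood at 219 and 117 CPM in C1q-positive macrophages. Hdc had 53.6 and 59.3 CPM in Chil3-high, 14.3 and 48.2 CPM in Cxcl10-low and 8.65 and 22.9 CPM in C1q-positive cells. Poldip3 had 68.7 and 63.0 CPM in Chil3-high cells, 49.9 and 64.0 CPM in Cxcl10-low cells and 45.9 and 55.9 CPM in C1q-positive macrophages. Whether any of these differences was larger in Cxcl10-positive monocytes than elsewhere was not tested, since 1 library per diet gives no error for it.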

How the data were processed

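Per the labels' protocols, leukocytes were bead-enriched from dissociated tumors and libraries made with Chromium 3′ chemistry version 3.1. The deposited matrices hold raw UMI counts per gene and barcode, not filtered to cells, made by the authors with Cell Ranger, which is version 4 per the file headers and 6.0.0 per the submitters' processing notes; the same notes list GRCm38 and mm10 as builds and Seurat 3.2.0 as a tool. Counts were summed over the gated cells of each library and scaled to a total of 1000000 (CPM).

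Members, gene lists and comparisons were chosen with earlier results of these data known. Shares have exact Clopper-Pearson, levels exact Poisson and ratios exact conditional binomial intervals at 95%. UMIs are molecules, but cells of 1 library share their source, so intervals cover counting error only. Genes counted as measured and size limits (1.5-fold between diets, 2-fold between gates, 20 CPM added) are as given in the report. Genes of the rule were not named as results, nor mitochondrial genes outside their own list. Other named genes had no cell with over 20% of a library's UMIs of the gene, and were the 12 highest and 12 lowest ratios, up to 3 at each end of every list, and the 5 label genes; any other gene was chosen after its values were seen. NK cells had at least 3 UMIs of NK receptor genes and fewer than 3 of Lyz2; C1q-positive macrophages had at least 10 C1q UMIs. No doublet caller was run, and the limits on other lineages stand in for one. Free mRNA is the sum over barcodes of at most 100 UMIs. Mx1, Mx2, Cxcl11 and Sting1 are not analysed here. The work used scipy 1.17.1 for intervals, pandas 2.3.3 and numpy 2.4.6 for tables and matplotlib 3.10.9 for plots under Python 3.11.15, and was tested on simulated data. Alternatives varied the thresholds, the mitochondrial limit, depth, pseudocount, filters and scaling.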

Additional observations from a re-analysis of the deposited data

How the results depend on the processing

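With 1 library per diet and intervals for counting error only, no value here carries the spread between mice, and counts of genes past a fold depend on depth. No paired analysis was possible because each diet had 1 library and no shared replicate. The ratio of shares stayed between 0.511 and 0.605 over 8 alternatives, and was 0.771 with no Chil3 limit (chosen after seeing the data). Genes at least 1.5-fold higher numbered 45 without the barcode above 20000 UMIs, 53 without cells of 3 or more UMIs of B cell, tumor or fibroblast, plasmacytoid or CCR7-positive dendritic markers, 146 with 1 CPM and 49 with 50 CPM added, 155 with no filter on low values, 44 with at least 200 UMIs, 144 without mitochondrial and ribosomal protein genes, 57 by the mean of per-cell CPM, and 49 where no cell held over 20% (chosen after seeing the data). Lower genes numbered 389 with 1 CPM and 103 with 50 CPM added, 410 with no filter and 115 with at least 200 UMIs. The type I interferon median was −0.41 with at least 10 Cxcl10 UMIs, −0.28 without the barcode above 20000 UMIs, −0.32 without cells holding those markers, −0.34 thinned, −0.34 with 50 CPM added, −0.31 without mitochondrial and ribosomal protein genes, −0.32 centred and −0.26 by per-cell means, below the median of all genes under each of 16 alternatives. Against Chil3-high cells, 8 genes were higher with 50 CPM added, and 7, 16 and 7 were lower with at least 10 Cxcl10 UMIs, with 1 CPM added and without mitochondrial and ribosomal protein genes. Of 384 values of the 24 named diet genes, 384 kept their direction and 382 stayed past 1.5-fold. These genes were picked for extreme ratios in the same cells, so this outcome was likely from the start. The causes of the shifts over the alternatives were not tested.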

Other observations

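Several lists outside immune signaling also differed between the libraries in Cxcl10-positive monocytes. All measured genes had a median log2 ratio of −0.08 there, with 3.06% at least 1.5-fold higher and 8.41% lower. All 10 measured mitochondrially encoded genes had log2 ratios below 0, with a median of −0.52 (−0.46 without the deepest barcode) and 4 at least 1.5-fold lower, where mt-Atp6 had 1716 CPM in ketogenic and 3303 CPM in normal cells. The rule limits mitochondrial UMIs to 10%. In Chil3-high cells 7 of these genes were lower, with a median of −0.61. Of 23 hypoxia and glycolysis genes, 2 were higher and 2 lower with a median of −0.02; Hilpda was higher, while Vegfa was lower, at 30.2 and 65.1 CPM, and Pfkfb3, a driver of glycolysis, at 40.8 and 72.4 CPM. Hypoxia-linked genes thus went both ways, and 1 higher and 1 lower were left without the deepest barcode.

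Of the list of ketone body use and sensing, Slc16a3, a lactate transporter, had 205 CPM in ketogenic and 235 CPM in normal cells. Of 9 measured lipid handling genes, 1 was higher, Hilpda, and 2 were lower, Fabp5 and the cholesterol exporter Abcg1, with 66.4 and 132 CPM. Heat shock and chaperone genes had a median log2 ratio of 0.18 over 11 genes with 2 higher, and of −0.02 with 0 higher without the deepest barcode. Of 16 Toll-like receptor and nucleic acid sensor genes 1 was lower, the RNA sensor gene Ddx58, and of 17 NF-kB genes 1, Nfkbiz. Ifnb1, which encodes interferon beta, had 0 UMIs in the 508 cells.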
